A study of Homo sapiens with 8 samples.

Results

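The integrins, laminins and nidogens comprised 31 genes of the 23391 in the deposited count table. They were taken by gene symbol, and the rule uses no measured value, although earlier results of these data were known when it was written. The members were 10 integrin alpha chains, 8 integrin beta chains, 5 laminin alpha, 4 laminin beta and 2 laminin gamma chains, and both nidogens. Their mRNA was measured by RNA-Seq in DU145, an established human prostate cancer cell line. DU145-pc3.1 cells carry the empty pcDNA3.1 vector and DU145-Esrrb cells the same vector with Esrrb, the orphan nuclear receptor estrogen related receptor beta. Each is a pool of cells that survived zeocin selection, not a clone, and vectors of this kind drive their insert from a cytomegalovirus promoter. Each pool was sequenced untreated and after 3 μM DY131, a synthetic ligand of Esrrb (DU145-pc3.1+DY131 and DU145-Esrrb+DY131), with 2 libraries in each of the 4 groups. Per the study's methods, RNA came from confluent cells kept with charcoal-stripped serum, and DY131 was given in medium with the same kind of serum. The duration of treatment and whether the untreated cells received a vehicle are not given in the sources used here, so DY131 and its vehicle cannot be told apart. Libraries are numbered 1 and 2 as in their labels, and those of DU145-Esrrb+DY131, whose columns carry no number, are called a and b. P-values rest on the spread between libraries of a group, in an estimate that all 4 groups share and that is moderated over genes.

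Between 7858743 and 11551690 reads were counted on genes per library. ESRRB held 104 and 99 counts in DU145-Esrrb and 105 and 143 in DU145-Esrrb+DY131, against 3 and 0 in DU145-pc3.1 and 0 and 1 in DU145-pc3.1+DY131, which goes with the labels. In cpm (counts scaled to a common library size with edgeR's TMM factors), ESRRB was at 8.82 and 9.1 in DU145-Esrrb. In DU145-Esrrb+DY131 it was higher, at 13.7 and 16.15 cpm, and the part of this in the differences with DY131 was not tested. The 5 epithelial markers summed to between 2501 and 3163 cpm in the 8 libraries, while KLK2 and KLK3, defining genes of prostate luminal cells, were at 0 counts in all of them. Of the epithelial markers CDH1 fell with DY131 in both pools (log2 −0.75, edgeR adjusted p = 0.000111, and log2 −0.7, edgeR adjusted p = 0.000159). It was lower with Esrrb alone (log2 −0.54, edgeR adjusted p = 0.0114), and went from 161 cpm in DU145-pc3.1 to 67.7 in DU145-Esrrb+DY131. The 5 markers did not move together: at an edgeR adjusted p under 0.05, 1 was higher and 2 lower with DY131 in DU145-pc3.1. In DU145-Esrrb 2 were higher and 2 lower, and KRT8 went from a mean of 1246 to 1620 cpm. Of all tested genes 18.9% were higher and 18.5% lower in the first pool, and 29.2% and 29.5% in the second. The summed level of the leukocyte markers reached 1.41 cpm at most, that of the endothelial markers 1.29 cpm and that of the fibroblast markers 6.07 cpm, of which COL1A1 made up most. The libraries of DU145-pc3.1+DY131 differed most from each other, with a chi-square of 7.34 per degree of freedom against 1.3 to 2.68 in the other groups. The DU145-Esrrb+DY131 libraries stood apart in another way: in DU145-Esrrb cells the median log2 difference with DY131 was 0.27 for the tenth of genes with the fewest 50-base windows across an exon junction and −0.56 for the tenth with the most. In DU145-pc3.1 cells these medians were −0.034 and −5e-04. Windows of this kind made up a median of 25.7% of a tested member's transcript, against 14.4% over all tested genes. Most fold changes that rest on the DU145-Esrrb+DY131 libraries are therefore given with and without a correction for this share, while levels and shares are uncorrected.

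Integrins are heterodimers of an alpha and a beta chain that bridge the matrix outside a cell to its cytoskeleton. Laminins are trimers of an alpha, a beta and a gamma chain that assemble into the basement membrane, and nidogens link the laminin network to type IV collagen. In the normal prostate, basal epithelial cells sit on such a membrane through laminin-binding integrins, and hemidesmosomes built on ITGA6 and ITGB4 anchor them. The alpha chain sets most of the ligand choice: ITGA1, ITGA2, ITGA10 and ITGA11 bind collagens, ITGA3, ITGA6 and ITGA7 bind laminins, and ITGA5 and ITGAV bind ligands with an RGD motif such as fibronectin and vitronectin.

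DU145 cells expressed a small number of these chains at a high level. Levels between genes were compared as cpm per kilobase of the transcript that carries the gene's RefSeq identifier. In DU145-pc3.1 cells ITGB1, the beta chain shared by most integrins, stood first at 851 ± 1.41 cpm per kilobase (SD, n = 2), followed by ITGA3 at 204 and LAMB3, the beta chain of the laminin of epithelial hemidesmosomes, at 114 cpm per kilobase. LAMC1 at 43.8, ITGAV at 38.5, ITGA6 at 38.1 and ITGA5 at 26.5 cpm per kilobase came next. The laminin alpha chains were led by LAMA5, found in most adult epithelial basement membranes, at 23.4 cpm per kilobase, and LAMA3 at 15.5. In all, 14 members had at least 10 cpm per kilobase. Neighbours in this order were not always apart. The 2 DU145-pc3.1 values of ITGAV and ITGA6 overlapped, and each of ITGB2, LAMA5 and ITGB4 overlapped with the next gene below it. The order also depends on the transcript: with the longest annotated transcript in place of the matched one, ITGAV went from place 5 to 10, ITGB2 from 8 to 11 and LAMA3 from 12 to 14. ITGB1 shares 15.6% of its 50-base windows with transcripts of other genes, so its level carries that uncertainty.

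**Figure D1:**
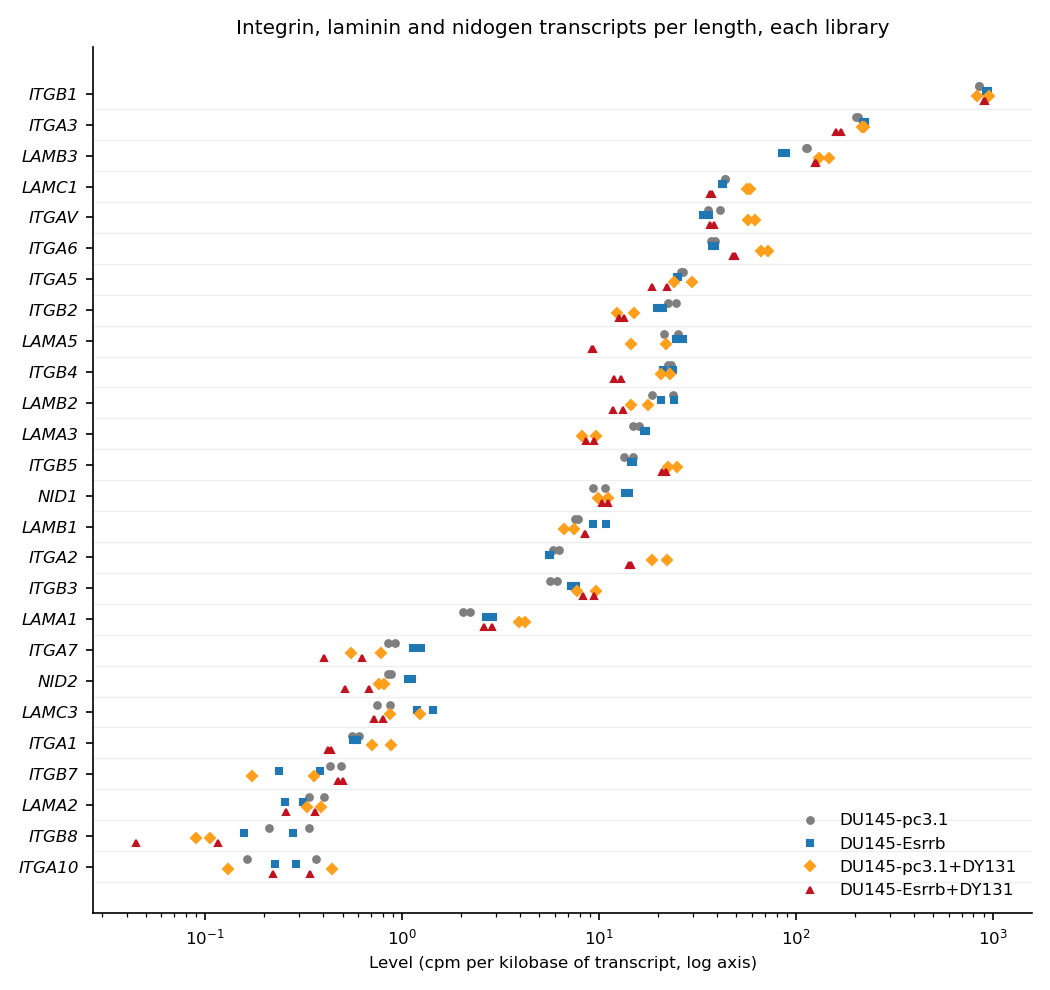
Level of the 26 members that passed the filter on low counts, in cpm per kilobase of transcript on a log axis, with 1 symbol per library and colours for the 4 groups. ITGB1 lies highest, and genes from ITGA7 downwards in the order lie below 1.5 cpm per kilobase in every library.

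Several chains were close to or below detection. A gene was tested if it had at least 1 cpm in at least 2 libraries, which 26 members did. ITGB6, a partner of ITGAV in epithelia, held 1 count in 1 of the 8 libraries and 0 in the others. LAMA4 and LAMB4 held at most 1 and 2 counts in any library. ITGA4, which pairs with ITGB1 or ITGB7 in leukocytes, held between 2 and 7 counts, and ITGA11 between 0 and 7. A count of 3, taken as the floor, corresponds to between 0.254 and 0.391 cpm, so levels under this were not detectable at this depth. ITGA10, ITGB7 and LAMA2 passed the filter but stayed between 0.496 and 3.87 cpm in all libraries, and none of the 5 comparisons called them at an adjusted p under 0.05.

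The make-up of each chain family followed from a few genes. Among the laminin-binding alpha chains ITGA3 supplied 84.0% ± 0.589 of the summed level per kilobase in DU145-pc3.1 and 84.9% ± 0.449 in DU145-Esrrb (SD, n = 2). With DY131 the share of ITGA6 was larger, at 24.0% ± 1.28 against 15.7% ± 0.607 in DU145-pc3.1 cells and 22.7% ± 0.882 against 14.6% ± 0.472 in DU145-Esrrb cells, and the treated and untreated libraries did not overlap. Among the collagen-binding alpha chains ITGA2 supplied between 85.1% and 87.6% in untreated and between 94.1% and 95.7% in treated libraries. LAMB3 made up between 71% and 81.1% of the laminin beta chains without DY131 and between 85.2% and 86.2% with it. LAMA1 made up between 5.10% and 6.14% of the laminin alpha chains in untreated and between 11.4% and 14.6% in treated libraries. These shares are descriptions, since an exact permutation of 2 libraries against 2 cannot pass the threshold. LAMA5 was the largest laminin alpha share in each untreated library, at 55.1% to 57.5%, and in DU145-Esrrb+DY131 it was at 44.8% and 42.5%, next to 41.4% and 42.9% for LAMA3. This closeness depends on the transcript taken for LAMA3, of 5671 or 10661 bases: with the longest transcripts the means in DU145-Esrrb+DY131 were 55.0% for LAMA5 and 28.2% for LAMA3, and LAMA3 had 24.3% in DU145-pc3.1 in place of 37.5%. In DU145-pc3.1+DY131 the share of LAMA5 differed widely between the libraries, at 63.8% and 50.5%.

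**Figure D2:**
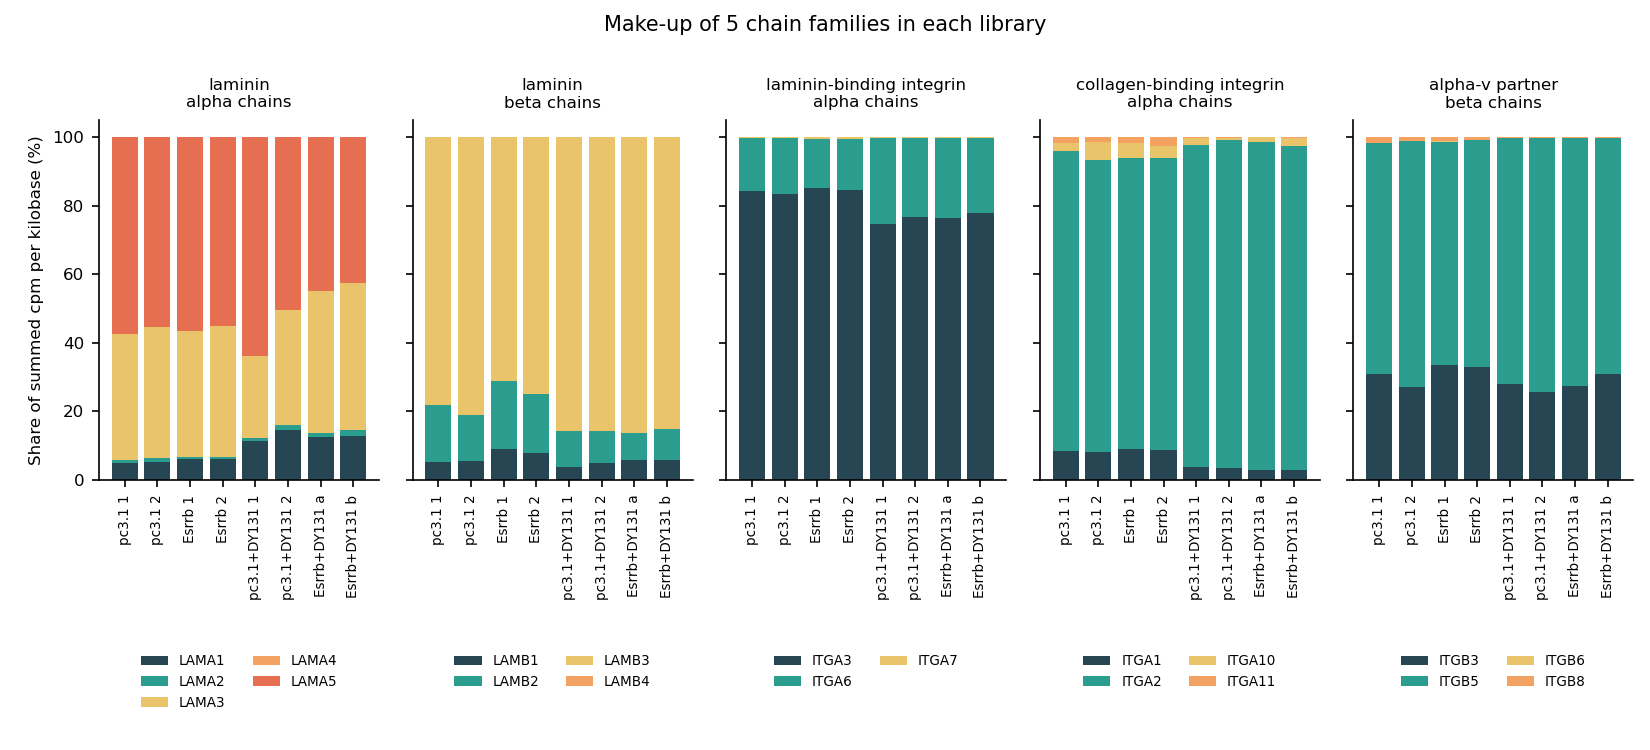
Share of each chain in the summed level per kilobase of its family (%), with 1 bar for each of the 8 libraries and 1 panel for each of 5 families. ITGA6 and LAMA1 take larger shares in the 4 treated libraries, and LAMA5 its smallest in the DU145-Esrrb+DY131 libraries a and b.

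Treatment with DY131 went with differences in most of the tested members, in both directions. Adjusted p-values are those of edgeR's quasi-likelihood fit, adjusted by Benjamini and Hochberg over the 13856 tested genes. A call needed a value under 0.05 together with a 2-fold difference or more. In DU145-pc3.1 cells 2 of the 26 tested members were called, ITGA2 higher and ITGB8 lower, beside 4.19% of all tested genes (1.02% higher and 3.16% lower). At the adjusted p alone 14 members passed, beside 37.4% of all genes. Of these 9 were higher and 5 lower, beside 18.9% and 18.5% of all genes. In DU145-Esrrb cells 4 members were called, ITGA2 higher and ITGA7, ITGB8 and LAMA5 lower, beside 12% of all genes (2.98% higher and 9.04% lower). At the adjusted p alone 18 members passed there, beside 58.7% of all genes. Of these 4 were higher and 14 lower, beside 29.2% and 29.5% of all genes. With correction for exon junctions 2 members were called there, ITGA2 and ITGB8, beside 10.1% of all genes (10.7% with the longest transcripts). At the adjusted p alone 7 members were then higher and 12 lower, beside 7403 of all 13856 genes in either direction. With the longest transcripts 7 members were higher and 11 lower, beside 7730 genes. The median log2 difference of the members was 0.0745 in DU145-pc3.1 and −0.28 in DU145-Esrrb, against −0.0026 and −0.0045 over all tested genes. Corrected, the median in DU145-Esrrb was −0.056 on matched and −0.16 on longest transcripts. In bulk RNA, fewer cells of a kind and less RNA per cell cannot be told apart.

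**Figure D3:**
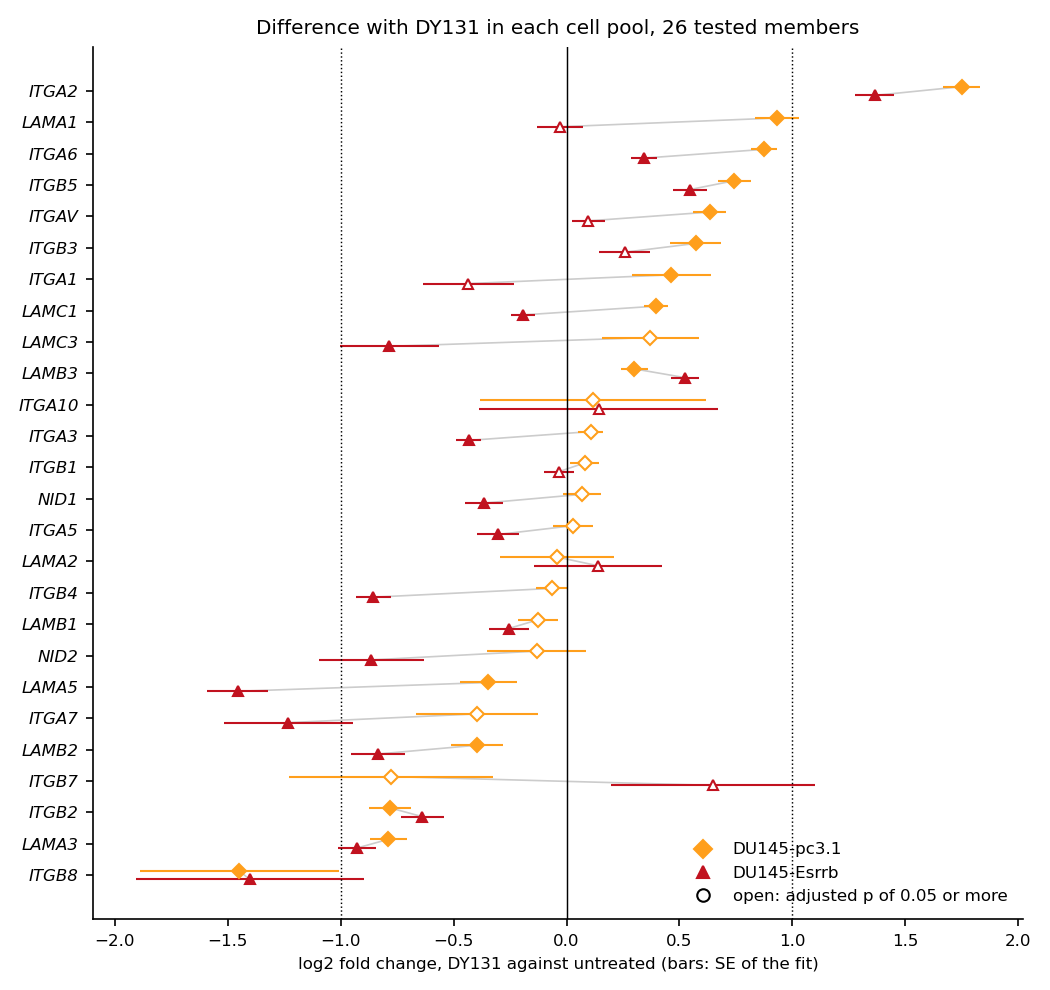
The log2 fold change with DY131 of the 26 tested members in DU145-pc3.1 cells (diamonds) and DU145-Esrrb cells (triangles), with bars for the SE of the fit, filled symbols for an edgeR adjusted p under 0.05 and dotted lines at a 2-fold difference. ITGA2 lies beyond the upper line in both pools, and most other members lie further to the left in DU145-Esrrb cells.

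Of the collagen-binding chains, ITGA2 gave the largest rise among the members. It lies on the plus strand of chromosome 5, from 52989326 to 53094779 (GRCh38, GENCODE 29; the authors mapped to hg18). ITGA2 was at 49.4 and 46.01 cpm in DU145-pc3.1 and at 174 and 146 cpm in DU145-pc3.1+DY131. In DU145-Esrrb it was at 44.4 and 43.9 cpm, and in DU145-Esrrb+DY131 at 115 and 112 cpm. All 4 treated libraries lay above all 4 untreated ones, and the DU145-Esrrb+DY131 libraries below those of DU145-pc3.1+DY131. The fold was 3.36 in DU145-pc3.1 (log2 1.75 ± 0.083, SE, edgeR adjusted p = 2.51e-09) and 2.58 in DU145-Esrrb (log2 1.37 ± 0.086, edgeR adjusted p = 5.30e-09). It remained called in both pools under every alternative tried, including both corrections for exon junctions. The rise was smaller in DU145-Esrrb by 0.39 on the log2 scale (edgeR adjusted p = 0.0213), and by 0.33 with correction for exon junctions (edgeR adjusted p = 0.0568). ITGA1, the other collagen-binding chain tested with values above ITGA10, ranged between 4.52 and 9.53 cpm over the 8 libraries. Its rise in DU145-pc3.1 cells (log2 0.46, edgeR adjusted p = 0.0455) did not pass with DESeq2 (adjusted p = 0.258).

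The laminin-binding chains moved apart from each other. ITGA6 was at 209 and 219 cpm in DU145-pc3.1, 213 and 219 in DU145-Esrrb, 408 and 377 in DU145-pc3.1+DY131, and 276 and 271 in DU145-Esrrb+DY131. It rose by 0.87 ± 0.058 on the log2 scale in DU145-pc3.1 (edgeR adjusted p = 7.33e-08) and by 0.34 ± 0.059 in DU145-Esrrb (edgeR adjusted p = 0.000142). The treated libraries lay above the untreated ones in each pool, and the difference between the rises passed its own test (log2 −0.53, edgeR adjusted p = 0.000205). With correction for exon junctions the rise in DU145-Esrrb was 0.48 and the difference −0.39 (edgeR adjusted p = 6.19e-06 and 0.00296). ITGA3 was at 1009 and 988 cpm in DU145-pc3.1, 1105 and 1078 in DU145-Esrrb, 1063 and 1087 in DU145-pc3.1+DY131, and 787 and 829 in DU145-Esrrb+DY131. The DU145-Esrrb+DY131 libraries held the lowest ITGA3 levels, below all 6 others. Its fall in DU145-Esrrb cells was −0.43 ± 0.055 on the log2 scale (edgeR adjusted p = 7.48e-06) and −0.22 after correction for exon junctions (edgeR adjusted p = 0.00357). ITGA7, a laminin receptor best known from muscle, lies on the minus strand of chromosome 12, from 55684568 to 55716043 (GRCh38, GENCODE 29). ITGA7 was low, at 3.62 and 3.34 cpm in DU145-pc3.1, 4.92 and 4.503 in DU145-Esrrb, 3.08 and 2.18 in DU145-pc3.1+DY131, and 2.48 and 1.58 in DU145-Esrrb+DY131. It fell by 1.23 ± 0.29 on the log2 scale in DU145-Esrrb (edgeR adjusted p = 0.00162), and by 0.89 with the correction for exon junctions, which left an adjusted p of 0.0164 but no 2-fold difference.

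ITGAV and its beta partners ITGB3 and ITGB5 rose in DU145-pc3.1 cells. ITGAV was at 136 and 117 cpm in DU145-pc3.1, 119 and 112 in DU145-Esrrb, 203 and 189 in DU145-pc3.1+DY131, and 121 and 126 in DU145-Esrrb+DY131. It rose in DU145-pc3.1 by 0.63 ± 0.071 on the log2 scale (edgeR adjusted p = 8e-06), while the value in DU145-Esrrb was 0.097 ± 0.075 (edgeR adjusted p = 0.277). Corrected for exon junctions, ITGAV rose in DU145-Esrrb too, by 0.83 on the matched transcript (edgeR adjusted p = 3.29e-07) and 0.26 on the longest (edgeR adjusted p = 0.00653). The difference between the pools was −0.54 on the log2 scale (edgeR adjusted p = 0.00105), and it turned to 0.17 when corrected on the matched transcript and was −0.36 when corrected on the longest one. The matched transcript of ITGAV has 3288 bases with 43.4% of windows across a junction, and the longest has 7030 bases with 20.1%. ITGB5, an ITGAV partner that binds vitronectin, was at 58.9 and 65.0 cpm in DU145-pc3.1, 65.0 and 63.7 in DU145-Esrrb, 109 and 98.6 in DU145-pc3.1+DY131, and 96.4 and 91.8 in DU145-Esrrb+DY131. It rose in both pools, by 0.74 ± 0.074 on the log2 scale in DU145-pc3.1 (edgeR adjusted p = 2.61e-06) and 0.55 ± 0.075 in DU145-Esrrb (edgeR adjusted p = 1.57e-05; 0.57 corrected for exon junctions), and the test of the difference gave an adjusted p of 0.168. ITGB3, the partner found on platelets and endothelium, was at 24.6 and 22.5 cpm in DU145-pc3.1, 30.5 and 29.04 in DU145-Esrrb, 38.9 and 31.0 in DU145-pc3.1+DY131, and 33.2 and 37.8 in DU145-Esrrb+DY131. Its rise passed in DU145-pc3.1 (log2 0.57 ± 0.11, edgeR adjusted p = 0.00104), but 56.2% of its windows also occur in transcripts of the annotated gene AC068234.1, so the reads cannot be assigned to ITGB3 alone.

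ITGB8, an ITGAV partner known for activating latent TGF-beta, was rare. It lies on the plus strand of chromosome 7, from 20330702 to 20415754 (GRCh38, GENCODE 29). Its counts were 31 and 21 in DU145-pc3.1, 29 and 15 in DU145-Esrrb, 10 and 8 in DU145-pc3.1+DY131, and 3 and 9 in DU145-Esrrb+DY131. Each treated library held fewer than each untreated one of its pool. It was called lower in DU145-pc3.1 (log2 −1.45 ± 0.44, edgeR adjusted p = 0.0169) and in DU145-Esrrb (log2 −1.40 ± 0.51, edgeR adjusted p = 0.0259). DESeq2 gave adjusted p-values of 0.095 and 0.0919 for these differences. Without replicate 1 of DU145-pc3.1 the first was −1.08 (edgeR adjusted p = 0.166), and without replicate 1 of DU145-Esrrb the second was −0.92 (edgeR adjusted p = 0.238). Without library a of DU145-Esrrb+DY131 the second was also −0.92 (edgeR adjusted p = 0.202). ITGA5, the fibronectin receptor chain, was at 119 and 117 cpm in DU145-pc3.1, 112 and 111 in DU145-Esrrb, 133 and 107 in DU145-pc3.1+DY131, and 98.9 and 82.6 in DU145-Esrrb+DY131. Its fall in DU145-Esrrb (log2 −0.30, edgeR adjusted p = 0.0120) became 0.099 with the correction for exon junctions, and −0.17 (edgeR adjusted p = 0.218) without library b of DU145-Esrrb+DY131.

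The other beta chains went different ways. ITGB1 was at 3101 and 3094 cpm in DU145-pc3.1, 3449 and 3358 in DU145-Esrrb, 3040 and 3507 in DU145-pc3.1+DY131, and 3303 and 3341 in DU145-Esrrb+DY131. Its log2 difference with DY131 was 0.08 ± 0.066 in DU145-pc3.1 and −0.035 ± 0.066 in DU145-Esrrb, and neither passed the test (edgeR adjusted p = 0.368 and 0.669). ITGB4, the hemidesmosome partner of ITGA6, was at 137 and 134 cpm in DU145-pc3.1, 142 and 125 in DU145-Esrrb, 136 and 123 in DU145-pc3.1+DY131, and 70.5 and 76.8 in DU145-Esrrb+DY131. ITGB4 was therefore low in the DU145-Esrrb+DY131 libraries and similar in the other 6. The fall in DU145-Esrrb was −0.86 ± 0.078 on the log2 scale (edgeR adjusted p = 2.49e-07), and −0.46 with the correction for exon junctions (edgeR adjusted p = 0.000115). The interaction was −0.79 (edgeR adjusted p = 5.61e-05), −0.39 when corrected on the matched transcripts (edgeR adjusted p = 0.0134) and −0.28 on the longest ones (edgeR adjusted p = 0.0528). ITGB2, the beta chain of the leukocyte integrins, was at 72.9 and 66.4 cpm in DU145-pc3.1, 62.3 and 58.2 in DU145-Esrrb, 36.6 and 44.6 in DU145-pc3.1+DY131, and 37.5 and 39.9 in DU145-Esrrb+DY131. All treated libraries lay below all untreated ones, with log2 differences of −0.78 ± 0.092 (edgeR adjusted p = 1.19e-05) and −0.64 ± 0.097 (edgeR adjusted p = 4.24e-05). The second was −0.43 with correction for exon junctions (edgeR adjusted p = 0.00184). The 5 leukocyte markers summed to between 0.763 and 1.41 cpm in untreated and between 0.297 and 0.565 cpm in treated libraries. PTPRC, CD3E and SPI1 held at most 0.113 cpm. CD14, the marker that was tested, held 0.667 to 1.32 cpm untreated and 0.297 to 0.467 cpm treated, a log2 difference of −1.36 in each pool (edgeR adjusted p = 0.0682 and 0.052), and −1.60 in DU145-Esrrb when corrected (edgeR adjusted p = 0.0255). The part of such cells in the fall of ITGB2 was not tested.

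**Figure D4:**
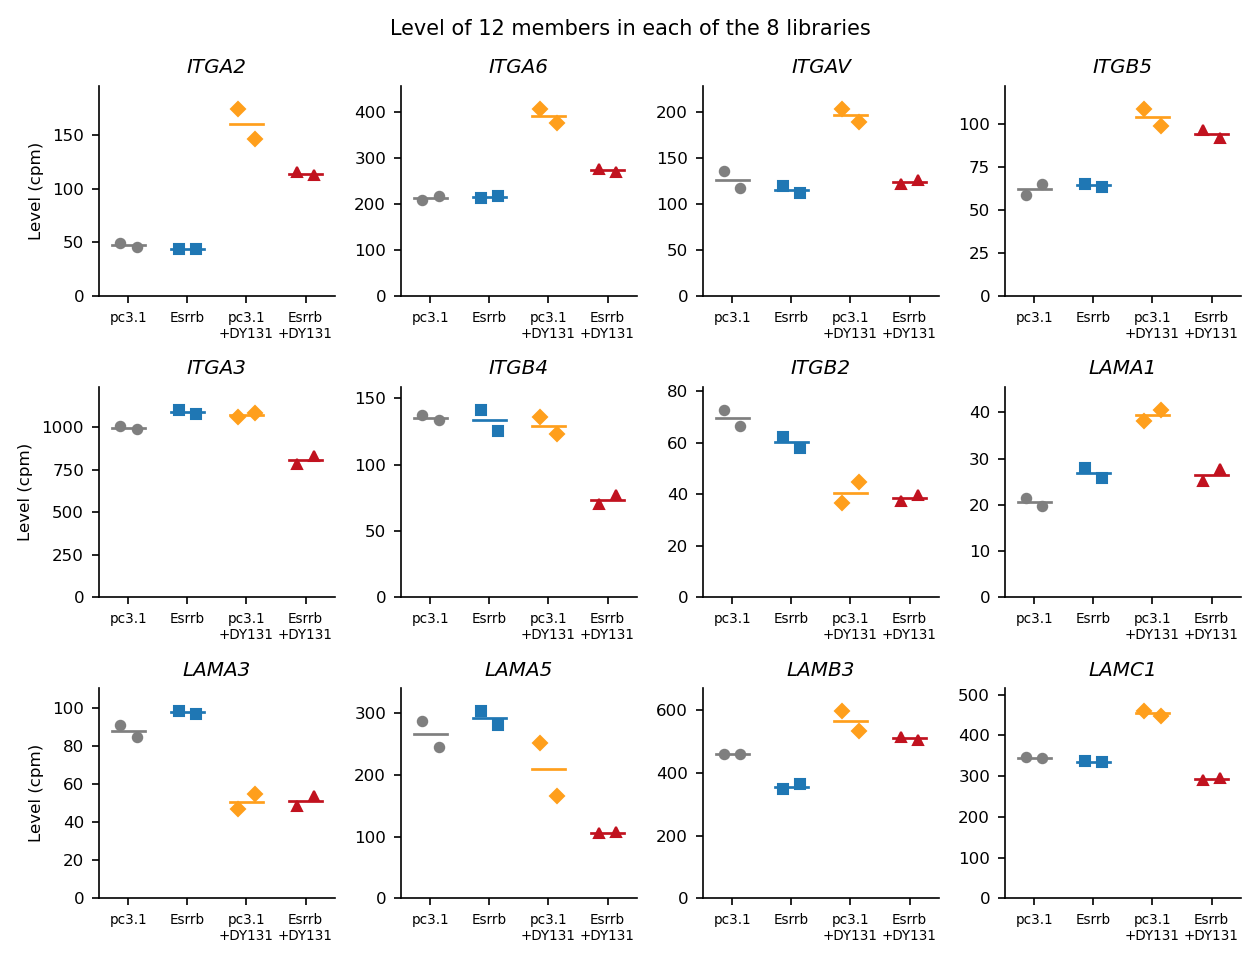
Level in cpm of 12 members in each of the 8 libraries, with a horizontal line at each group's mean and each axis starting at 0. ITGA2, ITGA6 and ITGB5 are high in the treated libraries of both pools, ITGAV, LAMA1 and LAMC1 are highest in DU145-pc3.1+DY131, and ITGB4 and LAMA5 are lowest in DU145-Esrrb+DY131.

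Among the laminins, LAMA5 gave the largest fall and a called difference between the pools. LAMA5 lies on the minus strand of chromosome 20, from 62307955 to 62367312 (GRCh38, GENCODE 29), and its matched transcript has 80 exons. LAMA5 was at 288 and 246 cpm in DU145-pc3.1, 305 and 281 in DU145-Esrrb, 252 and 167 in DU145-pc3.1+DY131, and 106 and 107 in DU145-Esrrb+DY131. The DU145-Esrrb+DY131 libraries lay below all others, while the DU145-pc3.1+DY131 libraries differed by more than the untreated ones and 1 of them overlapped with DU145-pc3.1. In DU145-Esrrb the fold was 0.365 (log2 −1.46 ± 0.13, edgeR adjusted p = 2.94e-07). In DU145-pc3.1 the log2 difference was −0.35 ± 0.13 (edgeR adjusted p = 0.0418), which became −0.079 without replicate 2 of DU145-pc3.1+DY131 (edgeR adjusted p = 0.37) and −0.22 without replicate 1 of DU145-pc3.1 (edgeR adjusted p = 0.321). DESeq2 gave it an adjusted p of 0.286. The interaction was called at −1.11 ± 0.18 on the log2 scale (edgeR adjusted p = 0.000344). With the correction for exon junctions the fall in DU145-Esrrb was −0.99 ± 0.13 (edgeR adjusted p = 1.20e-05) and the interaction −0.65 ± 0.18 (edgeR adjusted p = 0.0163), so both passed at the adjusted p and neither reached a 2-fold difference.

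The other laminin alpha chains behaved differently from LAMA5. LAMA3, the alpha chain of the hemidesmosome laminin, was at 91.1 and 84.5 cpm in DU145-pc3.1, 98.6 and 96.6 in DU145-Esrrb, 46.7 and 55.0 in DU145-pc3.1+DY131, and 48.7 and 53.7 in DU145-Esrrb+DY131. It fell in both pools to like levels, by −0.79 ± 0.083 on the log2 scale in DU145-pc3.1 (edgeR adjusted p = 4.37e-06) and −0.93 ± 0.084 in DU145-Esrrb (edgeR adjusted p = 2.38e-07). Corrected for exon junctions, the second was −0.52 (edgeR adjusted p = 0.000134). LAMA1, the alpha chain of the laminin of early embryos, was at 21.5 and 19.8 cpm in DU145-pc3.1, 28.0 and 25.9 in DU145-Esrrb, 38.2 and 40.6 in DU145-pc3.1+DY131, and 25.1 and 27.7 in DU145-Esrrb+DY131. It rose by 0.93 ± 0.097 on the log2 scale in DU145-pc3.1 cells (edgeR adjusted p = 3.82e-06), and in DU145-Esrrb cells, where treated and untreated libraries overlapped, the value was −0.028 ± 0.1 (edgeR adjusted p = 0.830). This difference between the pools passed its test (log2 −0.96 ± 0.14, edgeR adjusted p = 0.000113). With the correction for exon junctions it was −0.57 (edgeR adjusted p = 0.00947), and LAMA1 then rose in DU145-Esrrb by 0.36 (edgeR adjusted p = 0.00737).

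LAMB3 rose where LAMA3, an alpha chain it pairs with, fell. LAMB3 was at 459.5 and 461 cpm in DU145-pc3.1, 348 and 364 in DU145-Esrrb, 599.8 and 534 in DU145-pc3.1+DY131, and 517 and 507 in DU145-Esrrb+DY131. It rose by 0.30 ± 0.062 on the log2 scale in DU145-pc3.1 (edgeR adjusted p = 0.0013) and by 0.53 ± 0.062 in DU145-Esrrb (edgeR adjusted p = 3.69e-06), or 0.78 with correction for exon junctions (edgeR adjusted p = 6.51e-08). Each treated library lay above every untreated library of its pool. The comparisons within the 2 pools share no library, and for both LAMA3 and LAMB3 the direction was the same in both.

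LAMC1, the gamma chain of most laminins, went in opposite directions in the 2 pools. It was at 346 and 345 cpm in DU145-pc3.1, 337 and 335 in DU145-Esrrb, 461 and 449 in DU145-pc3.1+DY131, and 290.5 and 297 in DU145-Esrrb+DY131. The replicates lay close together and the groups with and without DY131 did not overlap in either pool. LAMC1 rose by 0.4 ± 0.053 on the log2 scale in DU145-pc3.1 (edgeR adjusted p = 3.67e-05) and fell by 0.19 ± 0.054 in DU145-Esrrb (edgeR adjusted p = 0.00607), with an interaction of −0.59 ± 0.076 (edgeR adjusted p = 3.68e-05). The interaction was −0.56 (edgeR adjusted p = 8.94e-05) with the correction for exon junctions and −0.49 (edgeR adjusted p = 0.000222) with the longest transcripts, but with the longest transcripts the fall in DU145-Esrrb was −0.093 (edgeR adjusted p = 0.153). Without library a of DU145-Esrrb+DY131 that fall was −0.18 (edgeR adjusted p = 0.0621). LAMC3, a gamma chain on chromosome 9, from 131009082 to 131094473 on the plus strand (GRCh38, GENCODE 29), was low, at 4.58 and 5.37 cpm in DU145-pc3.1, 7.29 and 8.82 in DU145-Esrrb, 5.32 and 7.63 in DU145-pc3.1+DY131, and 4.95 and 4.41 in DU145-Esrrb+DY131. Its interaction was called (log2 −1.16 ± 0.31, edgeR adjusted p = 0.00905), with component values of 0.37 in DU145-pc3.1, where the libraries overlapped, and −0.78 in DU145-Esrrb, where they did not. DESeq2 gave the interaction an adjusted p of 0.0535, and without library b of DU145-Esrrb+DY131 the edgeR adjusted p was 0.0526.

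Of the remaining laminin beta chains, LAMB2, a partner of LAMA5, was at 136 and 106 cpm in DU145-pc3.1, 137 and 117 in DU145-Esrrb, 101 and 82.5 in DU145-pc3.1+DY131, and 67.2 and 75.2 in DU145-Esrrb+DY131. It fell in DU145-Esrrb by −0.83 ± 0.12 on the log2 scale (edgeR adjusted p = 2.28e-05) and by −0.55 with the correction for exon junctions (edgeR adjusted p = 0.000889). The fall in DU145-pc3.1 (log2 −0.4, edgeR adjusted p = 0.0123) was −0.2 without replicate 1 of DU145-pc3.1 (edgeR adjusted p = 0.25). LAMB1, another beta chain found with LAMC1, was at 43.5 and 45.0 cpm in DU145-pc3.1, 62.1 and 53.9 in DU145-Esrrb, 38.1 and 43.1 in DU145-pc3.1+DY131, and 48.59 and 48.57 in DU145-Esrrb+DY131. Its fall in DU145-Esrrb (log2 −0.26, edgeR adjusted p = 0.0208) turned to 0.041 with the correction for exon junctions and was −0.15 without replicate 1 of DU145-Esrrb (edgeR adjusted p = 0.26). Both nidogens passed at the adjusted p, as lower with DY131, in DU145-Esrrb. NID1 was at 63.3 and 55.0 cpm in DU145-pc3.1, 83.8 and 79.4 in DU145-Esrrb, 58.5 and 65.6 in DU145-pc3.1+DY131, and 65.5 and 61.2 in DU145-Esrrb+DY131. In DU145-Esrrb the treated NID1 libraries lay below the untreated ones (log2 −0.37 ± 0.084, edgeR adjusted p = 0.00153, and −0.34 with correction for exon junctions), and in DU145-pc3.1 they overlapped. NID2 ranged between 2.48 and 5.43 cpm, and its fall in DU145-Esrrb was −0.87 ± 0.23 (edgeR adjusted p = 0.00473, DESeq2 adjusted p = 0.0542), or −0.74 when corrected (edgeR adjusted p = 0.0145).

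The test of whether DY131 acted differently in the pools gave, without correction, lower values in DU145-Esrrb for all members that passed. At the adjusted p alone 11 of 26 members passed, beside 33.7% of all genes, and they were 11 lower and 0 higher, beside 17.6% of all genes lower and 16.1% higher. At an unadjusted p under 0.05 edgeR's quasi-likelihood test gave 14 lower and 2 higher, and DESeq2 gave 9 lower and 0 higher at the adjusted p. The called members were LAMA5 and LAMC3, 2 of 26 beside 6.28% of all genes (1.54% higher and 4.74% lower), and the others that passed were ITGA1, ITGA2, ITGA3, ITGA6, ITGAV, ITGB4, LAMA1, LAMC1 and NID1. The median interaction of the tested members was −0.41 on the log2 scale, against 0.0036 over all genes, and −0.23 on matched and −0.25 on longest transcripts after correction for exon junctions. The correction left 9 members lower and 1 higher at the adjusted p on matched transcripts, beside 3084 of all 13856 genes in either direction. On the longest transcripts 9 members were lower and 2 higher, beside 3528 genes. The higher ones were LAMB3 (log2 0.49, edgeR adjusted p = 0.000809, and on the longest 0.50, edgeR adjusted p = 0.000432) and, on the longest, LAMA3 (log2 0.44, edgeR adjusted p = 0.0182). On matched transcripts 1 member was called, LAMC3, beside 4.43% of all genes, and on the longest 0 by edgeR's quasi-likelihood test, beside 5.09%.

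Expression of Esrrb without DY131 went with small differences in 4 members. Each construct was carried by its own selected pool, so Esrrb and other differences between the pools cannot be told apart. No tested member was called, 0 of 26 beside 0.577% of all genes (0.18% higher and 0.397% lower), by edgeR's quasi-likelihood test, its exact test or DESeq2. At an unadjusted p under 0.05 each of the 3 tests gave 8 members, and none of these reached a 2-fold difference. At the adjusted p alone 4 members passed the quasi-likelihood test, beside 4.17% of all genes (1.68% higher and 2.49% lower). NID1 (log2 0.47 ± 0.082, edgeR adjusted p = 0.00387), LAMB1 (log2 0.39 ± 0.086, edgeR adjusted p = 0.0169) and LAMA1 (log2 0.39 ± 0.1, edgeR adjusted p = 0.0405) were higher in DU145-Esrrb, and LAMB3 was lower (log2 −0.37 ± 0.062, edgeR adjusted p = 0.00256). For each of the 4 the libraries of the pools did not overlap. With DESeq2, NID1 and LAMB3 passed, and LAMB1 and LAMA1 had adjusted p-values of 0.0587 and 0.25. Without replicate 1 of DU145-Esrrb 0 members passed, without replicate 2 of DU145-pc3.1 only LAMB3 did, and without replicate 1 of DU145-pc3.1 only LAMB3 and NID1. Without either library of DU145-pc3.1+DY131, which enter through the shared estimate of the spread, 9 members passed. This comparison shares its libraries with the 2 tests of DY131, so its values and theirs are not independent.

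Between the treated pools no member was called, 0 of 26 beside 8.21% of all genes (2.15% higher and 6.06% lower), by edgeR's quasi-likelihood test, its exact test or DESeq2. At the adjusted p alone 12 passed, 1 higher and 11 lower in DU145-Esrrb+DY131, beside 50.4% of all genes (25.1% higher and 25.3% lower). At an unadjusted p under 0.05 the quasi-likelihood test gave 13 members and none of them reached a 2-fold difference. The largest was LAMA5 at −0.98 ± 0.14 on the log2 scale (edgeR adjusted p = 2.84e-05), and ITGA1 came next at −0.90 ± 0.19 (edgeR adjusted p = 0.00123). Both were called without replicate 2 of DU145-pc3.1+DY131. LAMB1, the member that was higher (log2 0.26, edgeR adjusted p = 0.0288), did not pass with DESeq2 (adjusted p = 0.104) and was at 0.16 (edgeR adjusted p = 0.181) without replicate 1 of DU145-pc3.1+DY131. With the correction for exon junctions LAMB1 was at 0.57 (edgeR adjusted p = 0.000183) and LAMA3, uncorrected at 0.014, at 0.43 (edgeR adjusted p = 0.00174). In all, 2 members were then higher and 7 lower at the adjusted p, beside 5334 of all 13856 genes in either direction. With the longest transcripts 3 members were higher and 9 lower, beside 5929 genes. LAMA5 was at −0.50 when corrected (edgeR adjusted p = 0.00673) and LAMC1 at −0.6 (edgeR adjusted p = 5.12e-07), close to its uncorrected −0.63.

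**Figure D5:**
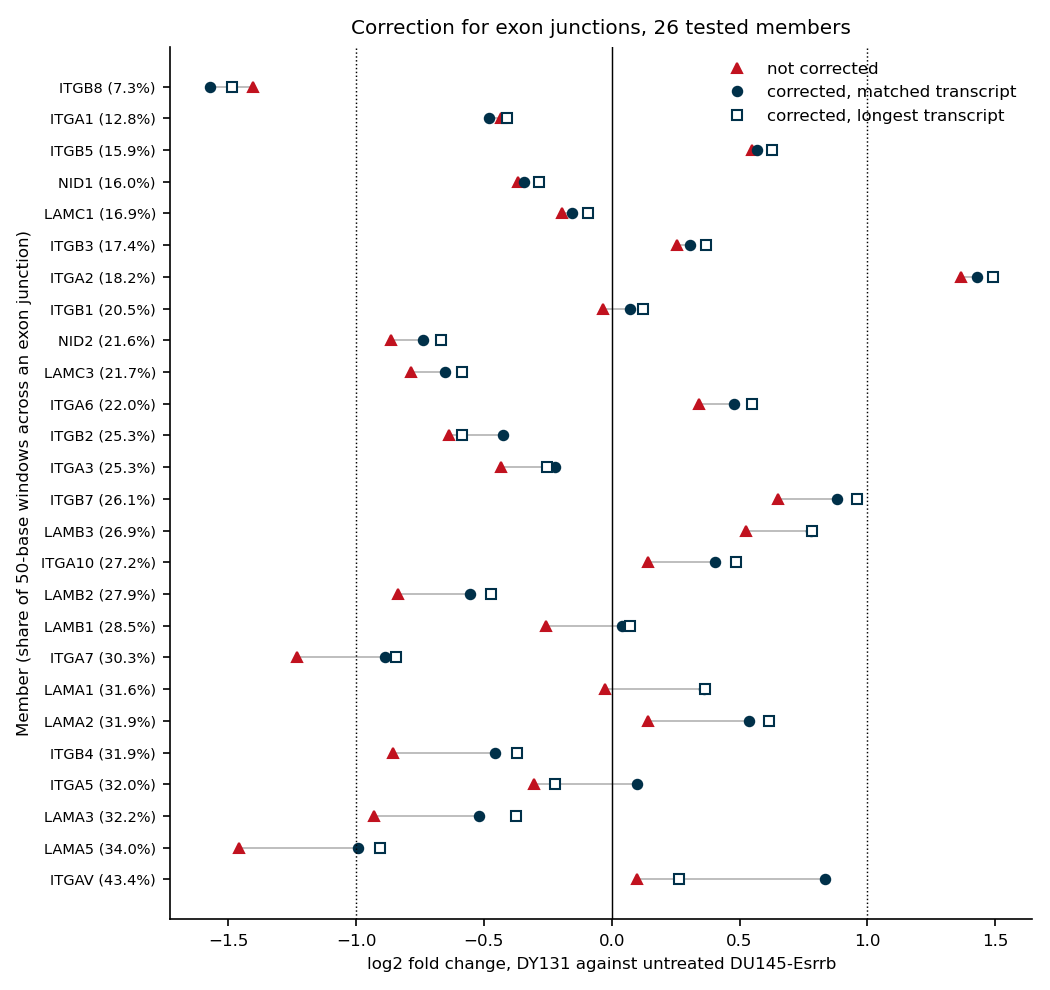
The log2 fold change with DY131 in DU145-Esrrb cells of the 26 tested members, ordered by the share of 50-base windows across an exon junction in the matched transcript (%), uncorrected (triangles) and corrected on the matched (circles) or longest transcript (squares). Members with many junctions move to the right under the correction, LAMA5 and ITGA7 from beyond to inside the dotted line at −1, while ITGA2 and ITGB8 stay outside.

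Genes that act with these chains were counted from lists, chosen like the members with earlier results of these data known. Of 21 integrin activators and adaptors, all tested, 13 were higher and 1 lower at the adjusted p with DY131 in DU145-pc3.1, and 7 were higher and 6 lower in DU145-Esrrb, beside 37.4% and 58.7% of all genes in either direction. FERMT1, the epithelial kindlin that activates integrins, was called in DU145-Esrrb, from 42.3 and 40.8 cpm to 127 and 126 cpm (log2 1.6 ± 0.067, edgeR adjusted p = 5.67e-11), and was at 1.57 with correction for exon junctions. Its DU145-pc3.1 libraries were at 44.8 and 44.5 cpm untreated and 85.5 and 85.4 cpm treated. TNS4 and TNS1, tensins that bind integrin tails, were called lower in DU145-Esrrb+DY131 than in DU145-pc3.1+DY131, at log2 −1.46 ± 0.088 (edgeR adjusted p = 4.36e-09) and −1.55 ± 0.44 (edgeR adjusted p = 0.00829). Corrected for exon junctions they were at −1.48 and −1.57. TNS4 was lower in DU145-Esrrb without DY131 too, at 20.4 and 20.1 cpm against 40.0 and 38.3 cpm. TNS1 was rare, with 3 and 8 counts in DU145-Esrrb+DY131, near the floor, against 22 and 19 in DU145-pc3.1+DY131. Without DY131 it held 9 and 7 counts in DU145-Esrrb and 17 and 19 in DU145-pc3.1 (log2 −1.21, edgeR adjusted p = 0.128). Of 13 hemidesmosome and basement membrane partners 12 were tested. At the adjusted p 5 were higher and 2 lower with DY131 in DU145-pc3.1, beside 18.9% and 18.5% of all genes. In DU145-Esrrb 5 were higher and 5 lower, beside 29.2% and 29.5% of all genes.

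Partners of the basement membrane that were called went in both directions. With DY131 in DU145-pc3.1, 0 of the 12 tested were called higher and 1 lower, beside 1.02% and 3.16% of all genes. In DU145-Esrrb 1 was called higher and 2 lower, beside 2.98% and 9.04% of all genes. Between the treated pools 2 were called, both lower, beside 6.06% of all genes called lower, and for the interaction 3, all lower, beside 4.74%. BCAM, a cell surface receptor for LAMA5, was at 118 and 98.5 cpm in DU145-pc3.1, 117 and 92.8 in DU145-Esrrb, 44.3 and 53.7 in DU145-pc3.1+DY131, and 46.1 and 47.4 in DU145-Esrrb+DY131. It fell in both pools, by −1.14 ± 0.11 (edgeR adjusted p = 2.87e-06) and −1.17 ± 0.12 (edgeR adjusted p = 7.88e-07) on the log2 scale. The fall in DU145-Esrrb was −1.09 with the correction for exon junctions. COL17A1, a hemidesmosome collagen, rose in DU145-Esrrb (log2 1.02 ± 0.13, edgeR adjusted p = 7.11e-06), and the correction for exon junctions made this 1.77. FBLN1, which binds nidogen and laminin, fell there from 19.4 and 20.9 to 6.64 and 5.08 cpm (log2 −1.79 ± 0.25, edgeR adjusted p = 2.07e-05), with an interaction of −1.68 (edgeR adjusted p = 0.00162) that remained called with the correction for exon junctions (log2 −1.30, edgeR adjusted p = 0.0145). AGRN, a laminin-binding proteoglycan, was at 756 and 684 cpm in DU145-pc3.1+DY131 and 306 and 308 cpm in DU145-Esrrb+DY131 (log2 −1.23 ± 0.066, edgeR adjusted p = 1.09e-09), with an interaction of −1.11 (edgeR adjusted p = 3.89e-07). These were −1.05 and −0.94 with the correction for exon junctions. HSPG2, the basement membrane proteoglycan perlecan, had an interaction of −1.26 ± 0.15 (edgeR adjusted p = 2.01e-05), and −0.83 with the correction (edgeR adjusted p = 0.000807).

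Of 13 other integrin ligands 10 were tested. CTGF was the one called, between the treated pools, where 8.21% of all genes were, at 58.5 and 35.8 cpm in DU145-pc3.1+DY131 and 22.5 and 22.7 cpm in DU145-Esrrb+DY131 (log2 −1.06 ± 0.18, edgeR adjusted p = 0.000164; −1.22 corrected for exon junctions). Without DY131 it was lower with Esrrb too, at 37.5 and 32.1 cpm against 54.35 and 63.3 cpm. That difference was −0.76 when corrected (edgeR adjusted p = 0.0116), and the corrected interaction of −0.46 did not pass (edgeR adjusted p = 0.196). At the adjusted p 2 ligands were higher and 0 lower with DY131 in DU145-pc3.1 by edgeR's quasi-likelihood test, and 3 were higher and 4 lower in DU145-Esrrb. Of all genes 18.9% were higher and 18.5% lower in the first and 29.2% and 29.5% in the second. Of 9 other integrin and laminin chains 4 were tested, and ITGA2B, the platelet partner of ITGB3, was called lower in both pools (log2 −1.28, edgeR adjusted p = 0.0089, and log2 −2.04, edgeR adjusted p = 0.000365) at levels under 5 cpm. Of all genes 3.16% and 9.04% were called lower there. Corrected for exon junctions, the falls of ITGA2B were alike, at −1.26 in DU145-pc3.1 and −1.33 in DU145-Esrrb (edgeR adjusted p = 0.00995 and 0.0121). The corrected interaction was −0.073 (edgeR adjusted p = 0.947). ITGAX, a leukocyte chain, held 2 counts in the DU145-Esrrb+DY131 libraries together and 29 in those of DU145-Esrrb, a ratio of 0.0946 per effective read with a 95% exact interval from 0.0109 to 0.374. Against 16 counts in DU145-pc3.1+DY131 the ratio was 0.157, with an interval from 0.0175 to 0.669. These intervals cover counting error only.

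The promoters of the members were searched for AAGGTCA, the core of the element that estrogen related receptors bind. Of the 31 members 24 matched RefSeq promoter windows (GRCh38.p14, 250 bases before to 50 after a start), with 31 windows in all. AAGGTCA, on either strand, was in 1 of these windows (3.23%), against 3.92% of all 35116 windows. That window belongs to a downstream start of ITGAV, and its 250 upstream bases lie within an intron of the gene. The GC box GGGCGG, on either strand, added to the search after the values were seen, was in 19 member windows (61.3%) against 45% of all windows, and its letters do not overlap with the other element. ITGA2 and LAMA5, the members with the largest called rise and fall before correction for exon junctions, had 4 and 5 GC boxes. The windows of both lacked AAGGTCA. LAMB1 and NID2, which were not called, also had 4 GC boxes, and ITGB8, called lower with and without the correction, had 2. The 250 bases upstream of the start are shown for ITGA2, LAMA5 and ITGAV, 5′ to 3′ on the strand of the gene. GC boxes are in capitals for ITGA2 (chr5:52989102-52989351, plus strand) and LAMA5 (chr20:62367313-62367562, minus strand). For ITGAV (chr2:186599955-186600204, plus strand) the AAGGTCA element, read on the opposite strand, is in capitals.
ITGA2: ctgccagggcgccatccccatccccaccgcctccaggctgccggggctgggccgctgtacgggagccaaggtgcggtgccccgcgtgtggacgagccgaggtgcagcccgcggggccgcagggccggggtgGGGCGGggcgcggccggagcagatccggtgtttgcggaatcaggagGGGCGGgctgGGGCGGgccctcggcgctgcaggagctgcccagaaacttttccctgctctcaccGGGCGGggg
LAMA5: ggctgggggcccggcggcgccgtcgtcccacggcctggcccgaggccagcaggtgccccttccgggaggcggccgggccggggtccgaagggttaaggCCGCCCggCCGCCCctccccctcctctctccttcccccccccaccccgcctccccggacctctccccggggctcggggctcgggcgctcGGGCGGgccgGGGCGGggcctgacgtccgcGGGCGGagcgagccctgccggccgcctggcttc
ITGAV: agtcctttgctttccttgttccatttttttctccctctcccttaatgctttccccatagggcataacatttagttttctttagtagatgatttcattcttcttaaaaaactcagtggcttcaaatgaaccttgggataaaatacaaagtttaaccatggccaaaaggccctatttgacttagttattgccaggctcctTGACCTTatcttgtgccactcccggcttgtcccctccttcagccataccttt
By GENCODE 29 the last 26 bases shown for ITGA2 lie in an exon of the gene, and those shown for LAMA5 and ITGAV lie in no exon. A match of letters is a description and does not say that a factor binds there.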

How the data were processed

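The authors sequenced 8 mRNA libraries as 50-base single reads from TruSeq Stranded mRNA kits, all in 1 Illumina lane. The reads were cleaned with FASTX-Toolkit, TopHat2 placed them on the hg18 genome, and MULTICOM-MAP counted them per gene. The deposited values are these counts, whole numbers that had not been normalized, for 23391 genes. How strand and reads with several matches were handled is not given in the sources used here, and neither is what separated the 2 biological replicates of a group. From the counts, a model with the 4 groups was fitted over all 8 libraries with TMM factors and the quasi-likelihood F test of edgeR 4.0.16 (R 4.3.3, limma 3.58.1), for 5 comparisons: DY131 in each pool, Esrrb with and without DY131, and their interaction. A gene entered the tests, as 13856 did, where 2 or more libraries reached 1 cpm. The SE of a log2 value is its size divided by the square root of F. Family shares were not tested: an exact permutation of 2 libraries against 2 cannot pass 0.05.

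Counts, TMM cpm and cpm per kilobase are given. Transcript lengths, positions, junction windows (50-base windows that cross an exon junction) and windows shared with other genes came from GENCODE 29 on GRCh38, matched by RefSeq identifier, not from hg18. For the correction, each library's log ratio to the mean over libraries was smoothed on the junction share over the tested genes (loess span 0.3) and taken out as an offset. Such a correction also takes out any change in expression that follows the junction share.

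Values per library are given for the members that were called or averaged at least 10 cpm, and list genes are named where they were called. Members and lists were chosen with earlier results of these data known. DESeq2 1.42.0, edgeR's exact test, other scalings and filters, a replicate block, corrections for transcript length and junction share, and leaving out each library were tried as alternatives. The correction on the longest transcripts and the GC box search were added after seeing the data. The tests were tried on simulated data. Figures were drawn with matplotlib 3.10.9.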

Additional observations from a re-analysis of the deposited data

Results flagged for a closer look

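The tests of whether DY131 acted differently in the 2 pools singled out LAMA5 and LAMC3 among the members. For LAMA5 the interaction was −1.11 on the log2 scale, the sum of a fall of −1.46 in DU145-Esrrb less one of −0.35 in DU145-pc3.1. It was −0.65 (edgeR adjusted p = 0.0163) with the correction for exon junctions on the matched transcript and −0.53 (edgeR adjusted p = 0.0325) on the longest. For LAMC3 the interaction was −1.16, from a value of −0.78 in DU145-Esrrb and 0.37 in DU145-pc3.1, at counts of 38 and 39 in DU145-Esrrb+DY131 and 48 to 96 in the other libraries. It was −1.03 (edgeR adjusted p = 0.0262) and −0.94 (edgeR adjusted p = 0.0353) with the same corrections. Groups of 2 libraries are too small to test for outliers.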

How the results depend on the processing

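Of 130 pairs of a tested member and a comparison, 72 passed the adjusted p in the reported fit or in an alternative other than leaving out 1 library. The other 58 passed at most in fits without a library of DU145-pc3.1+DY131, and their directions are not counted here. Of 1304 values for the 72 pairs under the alternatives, 1142 kept their direction and their side of the threshold, 92 lost the adjusted p, 45 gained it and 25 turned in direction. The causes were not tested. With DESeq2 1 member was called for DY131 in DU145-pc3.1, 1 for the interaction, and 2 passed the adjusted p for Esrrb without DY131. With no fold threshold the calls were 4 for Esrrb without DY131, 14 and 18 for DY131 in DU145-pc3.1 and DU145-Esrrb, 12 for Esrrb with DY131 and 11 for the interaction. With at least 10 counts in every library, which removes low genes, 1 was called in DU145-pc3.1 and 1, LAMA5, for Esrrb with DY131, as with the 4 libraries compared alone. Such fits on 4 libraries do not share the spread of the other groups. In them ITGA1 and LAMA5 did not pass for DY131 in DU145-pc3.1 (edgeR adjusted p = 0.0869 and 0.125). For Esrrb without DY131, ITGB3 and LAMC3 passed (edgeR adjusted p = 0.0227 and 0.0223). The junction correction left 2 calls for DY131 in DU145-Esrrb with either transcript, beside 10.1% (matched) and 10.7% (longest) of all genes. For the interaction it left 1 (matched) or 0 (longest), beside 4.43% and 5.09% of all genes.

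Leaving out 1 library gave 0 to 9 members past the adjusted p for Esrrb without DY131, 1 to 2 calls for DY131 in DU145-pc3.1 (1 without replicate 1 of DU145-pc3.1), 0 to 2 calls for Esrrb with DY131 and 7 to 16 members past the adjusted p for the interaction (7 without library b of DU145-Esrrb+DY131). The same range was −0.10 to 0.037 for LAMA1 with DY131 in DU145-Esrrb, and for Esrrb with DY131 −0.11 to 0.14 for LAMA3 and −0.091 to 0.13 for ITGB1.

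Among the 72 pairs, log2 values that turned with the junction correction on matched transcripts were, for DY131 in DU145-Esrrb, ITGA5 0.099, LAMA1 0.36 and LAMB1 0.041; for Esrrb with DY131, ITGA5 0.0057, ITGAV 0.064 and LAMB3 0.12; and for the interaction, ITGA5 0.073, ITGAV 0.17 and LAMA3 0.27. On the longest they were LAMA1 0.37 and LAMB1 0.0698 in DU145-Esrrb, LAMB2 0.037 and LAMB3 0.14 for Esrrb with DY131, and LAMA3 0.44 for the interaction. For Esrrb with DY131, LAMA3 was −0.0029 with library size alone, −0.023 with at least 10 counts, −0.016 with 4 libraries and −0.014 with the length correction, and ITGB1 was −0.015 with at least 10 counts and −0.0073 with 4 libraries.

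Replicate numbers did not pair the libraries: deviations of equally numbered libraries correlated at 0.0918, 0.0229 and −0.0685. With a replicate block over the 6 numbered libraries 2 members passed for Esrrb without DY131. Depth limits members under about 10 counts per library, ITGB8 among them.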
